A study of Mus musculus with 32 samples.

Results

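Of the 51884 transcript models quantified in primary mouse cortical neurons, 300 were both short and abundant. They were chosen by length and by measured level: a deposited length of at least 300 and under 1000 bases and a mean of at least 200 estimated reads over all 32 libraries. One transcript that met both limits, uc012eno.1 (334 bases), was left out by the rule. The rule used the mean over all libraries and no contrast between them, so the level of the members is a description, and the differences between groups were tested. A member low in some groups can still have passed the mean through the groups where it is high. The deposited files name transcripts by UCSC identifiers, which matched 0 entries of the reference tables used here. Members are therefore given by identifier, and neither their genes nor their sequences could be shown.

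TurboID is a biotin ligase that tags proteins close to it, and PSD95 is the main scaffold protein of the postsynaptic density of excitatory synapses. A fusion of both tags proteins at the postsynapse, and RNA crosslinked to those proteins is recovered with them on streptavidin. Dendrites hold a stock of mRNAs that can be translated near synapses, and the short mRNAs of neurons in general include many that encode small and abundant proteins, such as those of the ribosome and of the respiratory chain. Which of the members belong to these classes is not known from the identifiers.

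The cultures came from cortices of CD-1 mouse embryos (E14.5) and were used after 12 days in vitro. They carried a lentiviral, doxycycline-inducible TurboID-PSD95 or Pan-TurboID, the latter labelling proteins throughout the neuron. Every culture received cycloheximide, which blocks translation elongation, for 2 minutes and then biotin for 30 minutes. Resting cultures (rest) were compared with depolarized ones (dep). The latter had first been silenced for 2 hours (tetrodotoxin, DL-AP5), then exposed for 1 hour to KCl (55 mM) and given 30 minutes of rest. By the study's methods, this rest was in fresh medium that held the biotin and both silencing drugs. The labels do not say that resting cultures were silenced, so the silencing drugs and KCl cannot be told apart here. After UV crosslinking, 15% of each lysate was kept as input and the rest went to the streptavidin pulldown. The 2 states, 2 constructs and 2 fractions made 8 groups of 4 libraries. Neuronal and glial markers could not be checked, since the identifiers carry no gene names. In these bulk samples, fewer cells of a type and less RNA per cell cannot be told apart.

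Libraries held 2949123 to 19323465 estimated reads. A single transcript that is no member, uc009sgd.1, took 2.08% to 84.8% of them (median 14.5%) and more than 50% in 6 libraries, of which 5 were from replicate 3. Outside the 3 most abundant transcripts, 612945 to 17632500 reads remained, and this range sets the precision of the values below. The free-text descriptions of 8 libraries, all numbered 2 in their titles, name the opposite state. The titles and the treatment field were followed, and results under the states of the descriptions are given where they end a call. Levels are CPM, the read count of a transcript relative to the total of its library, scaled by TMM factors and not divided by length. All differences were tested with limma over the whole table, and a transcript is called at a Benjamini-Hochberg adjusted p of 0.05. A difference is a log2 difference of fitted levels unless another quantity is named, and "rose" and "fell" are used of called transcripts and of the direction within a replicate. The 4 replicates of a group were biologically independent by the study's methods.

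Members were 324 to 999 bases long, with a median of 735. Of them, 51 were shorter than 500 bases, 80 had 500 to under 700 and 169 had 700 or more. Their mean level ran from 200.5 to 13002 reads, with a median of 425, and 53 averaged at least 1000 reads. Per length, the median member stood at 67.5 TPM, a level scaled by length and library. Abundant transcripts of any length, those with a mean of at least 200 reads, numbered 7288 with the members included. The 10 most abundant members held 22.5% of the members' reads. The files limit single members. Of the 300, 190 shared estimated reads with other transcripts, while 110 had whole counts (within 0.001) in every library, and 13 were listed at 0 in at least 1 library. The rounded counts of 2 members, uc057bcv.1 and uc057bcw.1, were identical in every library, and both are counted below.

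At the edges of the rule, uc057cby.1 (978 bases, mean 200.5 reads) was the last inside and uc007lfk.2 (738 bases, 199.7 reads) the first outside. By length, the shortest member was uc009pjl.1 (324 bases, 229.5 reads), and uc008yoa.1 (292 bases, 344 reads) was too short. The longest, uc008axy.2, had 999 bases and 2957 reads, and uc009ubk.1 (1001 bases, 398 reads) was too long.

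Members together took 2.34% ± 0.17 (SD, n = 4) of the reads outside the 3 top transcripts in resting Pan pulldowns and 3.30% ± 0.64 in depolarized ones. In PSD95 pulldowns they took 2.36% ± 0.33 at rest and 2.45% ± 0.31 after depolarization. Their share was higher in the inputs, with 3.36% ± 0.34 in resting Pan, 3.84% ± 0.62 in depolarized Pan, 3.55% ± 0.35 in resting PSD95 and 3.74% ± 0.55 in depolarized PSD95. The Pan pulldowns ran from 2.14% to 2.50% at rest and from 2.50% to 3.89% after KCl, touching at their edges, and the ranges of the other pairs of states overlapped further.

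The fraction, input or pulldown, accounted for the largest part of the spread of a typical member. On the log2 CPM scale, fraction took a median of 41.5% of a member's variance, replicate number 18.4%, state 3.32% and construct 1.57%. For all abundant transcripts the medians were 10.3%, 15.4%, 4.65% and 1.09%. The SD of log2 CPM over the 32 libraries was 0.56 for the median member and 0.54 for the median abundant transcript.

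Most members were lower in the pulldown than in the matched input, with either construct and in either state. In resting Pan cultures 206 of the 300 fell and 5 rose, while 4.52% of all 34696 tested transcripts were called lower, 4.93% higher and 9.45% in either direction. In depolarized Pan cultures 137 fell and 3 rose, beside 4.45% lower, 3.59% higher and 8.04% in all. In resting PSD95 cultures 186 fell and 5 rose, beside 4.1%, 3.14% and 7.25%. In depolarized PSD95 cultures 224 fell and 4 rose, beside 7.08%, 5.69% and 12.8%. Among the 7288 abundant transcripts, the called lower and higher numbered 1343 and 471 (Pan, rest), 1327 and 282 (Pan, dep), 1210 and 395 (PSD95, rest) and 2079 and 473 (PSD95, dep).

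The median fitted difference of the members was -0.66 (log2) in resting Pan, -0.57 in depolarized Pan, -0.78 in resting PSD95 and -0.83 in depolarized PSD95 cultures. For all abundant transcripts it was -0.17, -0.26, -0.22 and -0.34. In each of the 4 replicates of each group the members' median log2 ratio lay below that of the abundant transcripts. The gap was -0.51 ± 0.096 (SD, n = 4), -0.24 ± 0.15, -0.53 ± 0.051 and -0.49 ± 0.15 in the same order. At rest in PSD95 cultures, 246 members were lower in all 4 replicates, which is 82.0% of members beside 32.9% of abundant transcripts. The 4 lists of fallen members shared 110 transcripts. The resting lists of Pan and PSD95 shared 164, which is 79.6% of the Pan list and 88.2% of the PSD95 list. The overlap of such lists among all abundant transcripts was not counted, here or for the KCl lists below. Whether members overlap more than other transcripts is therefore not known.

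Within the members, the shorter ones were lower. In resting PSD95 cultures the gap to the abundant median was -0.77 ± 0.11 (SD, n = 4) for under 500 bases, -0.62 ± 0.11 for 500 to under 700 and -0.41 ± 0.028 for 700 or more, and it was -0.17 ± 0.039 for the 926 abundant transcripts of 1000 to under 2000 bases. In resting Pan cultures the same classes gave -0.71 ± 0.19, -0.59 ± 0.13, -0.42 ± 0.083 and -0.15 ± 0.047. In depolarized Pan cultures the 3 classes of members lay close together, at -0.28 ± 0.18, -0.26 ± 0.18 and -0.23 ± 0.13. Across members, Spearman's rho between length and the fitted difference was 0.47 (Pan, rest), 0.17 (Pan, dep), 0.45 (PSD95, rest) and 0.42 (PSD95, dep). These are descriptions over 300 transcripts that share libraries and differ in depth.

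**Figure D1:**
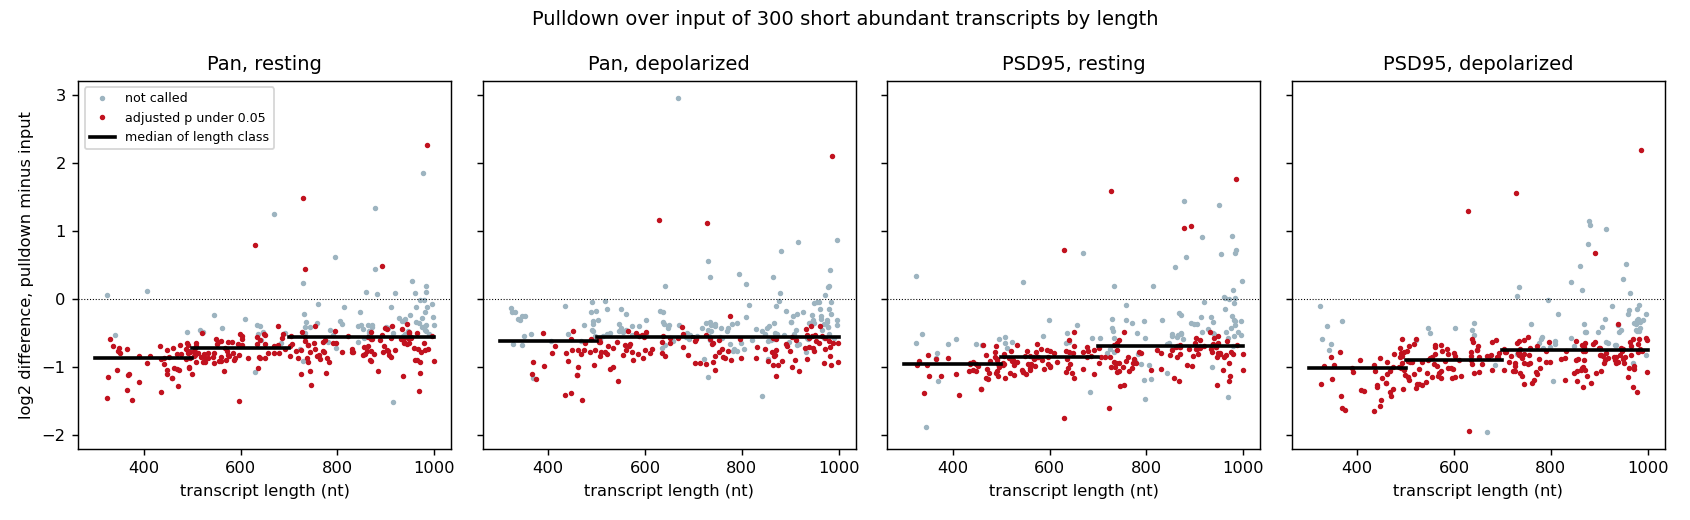
Fitted log2 difference of pulldown over input (y axis) against transcript length in nucleotides (x axis) for the 300 members, in 4 panels by construct and state. Red points are called at an adjusted p of 0.05, grey points are not, and black bars are medians of the classes of 300 to under 500, 500 to under 700 and 700 to under 1000. Most points lie below 0, and the bars are lowest for the shortest class, except that in depolarized Pan cultures they differ little.

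The clearest fall was that of uc009gvf.1 (970 bases), which had the smallest p of the fallen members in 3 of the 4 groups. Its resting Pan inputs held 737, 486, 433 and 423 CPM in replicates 1 to 4, and the pulldowns 319, 215, 229 and 284. The PSD95 pulldowns at rest held 308, 255, 196 and 208 CPM against inputs of 739, 539.6, 418 and 518. Every pulldown value was below every input value in both cases. The difference was -1.09 ± 0.065 (SE, adjusted p = 3.06e-11) by limma in Pan and -1.20 ± 0.10 (SE, adjusted p = 5.20e-08) in PSD95. After depolarization it was -0.93 ± 0.084 (SE, adjusted p = 1.02e-07) in Pan and -1.28 ± 0.086 (SE, adjusted p = 2.51e-10) in PSD95, and all 14 settings tried called it in each group.

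Other leading falls were of similar size. For uc007kil.3 (559 bases) the resting Pan inputs held 249.8, 195, 201 and 268 CPM and the pulldowns 129, 95.6, 114 and 139.8. The ranges did not overlap, and the difference was -0.90 ± 0.067 (SE, adjusted p = 1.72e-09) by limma. For uc008jhe.2 (638 bases) the resting PSD95 inputs held 117, 100.4, 79.7 and 106 CPM and the pulldowns 60.6, 55.6, 37.6 and 47.5, again without overlap, a difference of -1.01 ± 0.084 (SE, adjusted p = 5.20e-08) by limma. Both were called in all 14 settings. For uc008zrj.2 (753 bases), the member with the second highest mean (7786 reads), the depolarized Pan inputs held 851, 1211, 1003 and 1137 CPM and the pulldowns 530.3, 935, 587 and 923. Pulldowns of replicates 2 and 4 exceeded the lowest input here, but each replicate was lower in its own pulldown, with a difference of -0.78 ± 0.077 (SE, adjusted p = 5.26e-07) by limma.

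Against this direction, 3 members rose in the pulldowns of all 4 groups: uc007epl.2, uc011ysb.1 and uc008ljm.1. In this order their mean TPM was 15.9, 34.0 and 25.6 in inputs and 143, 173 and 101 in pulldowns. The mean that the rule used includes those pulldowns, so the number of such members depends partly on the rule. The resting Pan inputs of uc007epl.2 (986 bases) held 21.7, 15.8, 22.2 and 22.9 CPM and the pulldowns 83.3, 101, 156 and 79.3, a difference of 2.26 ± 0.38 (SE, adjusted p = 0.000269) by limma. Its depolarized PSD95 inputs held 29.01, 28.6, 31.4 and 27.8 CPM and the pulldowns 160.0, 131, 133 and 71.6, a difference of 2.19 ± 0.34 (SE, adjusted p = 5.46e-05). Every pulldown stood above every input in both. In depolarized Pan cultures, where the pulldowns held 58.9, 18.9, 140.0 and 72.7 CPM and the inputs 11.6, 15.5, 33.4 and 20.7, the ranges overlapped through replicate 2, and the difference was 2.11 ± 0.49 (SE, adjusted p = 0.00822) by limma.

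For uc011ysb.1 (728 bases) the resting PSD95 inputs held 35.0, 33.01, 34.6 and 45.2 CPM and the pulldowns 93.7, 60.1, 101 and 159, without overlap, a difference of 1.59 ± 0.26 (SE, adjusted p = 0.000321) by limma. In resting Pan cultures its inputs held 23.9, 37.1, 57.4 and 26.3 CPM and its pulldowns 68.6, 51.8, 117 and 118, which overlapped slightly, with a difference of 1.48 ± 0.26 (SE, adjusted p = 0.000387). For uc008ljm.1 (629 bases) the depolarized PSD95 inputs held 21.3, 16.7, 7.84 and 19.4 CPM and the pulldowns 49.9, 46.6, 42.7 and 32.1. The pulldowns were all higher, with a difference of 1.30 ± 0.20 (SE, adjusted p = 7.50e-05) by limma. In depolarized Pan cultures it held 17.2, 12.3, 20.5 and 6.21 CPM in inputs and 36.8, 18.5, 43.9 and 30.9 in pulldowns, a difference of 1.17 ± 0.27 (SE, adjusted p = 0.00791), although the input of replicate 3 exceeded the pulldown of replicate 2. A further member, uc029yhf.1 (892 bases), rose in resting PSD95 pulldowns, with 141, 156, 131 and 95.1 CPM against inputs of 68.6, 117, 55.2 and 38.9. The highest input exceeded the lowest pulldown, and the difference was 1.08 ± 0.16 (SE, adjusted p = 0.000125) by limma.

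The number of called members depended on single replicates. Without replicate 1 it went from 211 to 48 (Pan, rest), from 140 to 21 (Pan, dep), from 191 to 51 (PSD95, rest) and from 228 to 74 (PSD95, dep). Without the replicate block it was 70, 16 and 66 in the first 3. Without replicate 3 the Pan counts were 138 at rest and 42 after depolarization, and without replicate 4 the resting PSD95 count was 95. The fit reported blocks replicate number and does not pair each pulldown with the input of its lysate. With a block by lysate, 187 of the 211, 88 of the 140, 147 of the 191 and 209 of the 228 calls remained. Counts under alternatives, here and below, cover members only. The shares of all transcripts called under each alternative are not given beside them. They therefore do not show whether members lost more calls than other transcripts.

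Depolarization with KCl was followed by higher levels of many members in the Pan pulldowns. There 79 of the 300 rose and 2 fell, beside 3.3% higher, 2.9% lower and 6.2% in all of the 32553 transcripts tested. Among all abundant transcripts 430 rose and 696 fell. The median member differed by 0.34 (log2) and the median abundant transcript by -0.096, and 254 members were above 0. The rise was seen in each replicate, with a gap to the abundant median of 0.53, 0.76, 0.26 and 0.28 in replicates 1 to 4. The largest value is that of replicate 2, whose descriptions name the opposite states, and with those states the mean gap fell from 0.46 to 0.077, while without replicate 2 it was 0.36. In all, 133 members (44.3%, beside 14.2% of abundant transcripts) were higher in all 4 replicates.

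The gap was 0.65 ± 0.34 (SD, n = 4) for members of under 500 bases, 0.47 ± 0.23 for 500 to under 700 and 0.38 ± 0.20 for 700 or more, with 0.21 ± 0.11 for abundant transcripts of 1000 to under 2000 bases. Of the called members, 23, 24 and 32 of these 3 classes rose. The 79 rises ran from 0.37 to 1.79 on the log2 scale, and 12 were of at least 1. All 79 stood below 0 in each of the 4 pulldown over input comparisons, which share the pulldown libraries. Of them 77, 54, 68 and 75 were called lower (Pan rest, Pan dep, PSD95 rest, PSD95 dep). Of all 300 members, 280, 282, 276 and 284 stood below 0 and 206, 137, 186 and 224 were called lower. Standing below 0 was thus not particular to the 79.

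The smallest p among the rises was that of uc008fpw.2 (775 bases). Its resting Pan pulldowns held 120.0, 88.3, 81.3 and 102 CPM and the depolarized ones 184, 180.0, 118 and 184. Depolarized replicate 3 was low and lay within the resting range, and each replicate rose. The difference was 0.74 ± 0.082 (SE, adjusted p = 0.000577) by limma, called in 11 of 13 settings. For uc008qmp.1 (493 bases) the resting libraries held 8.70, 9.77, 7.34 and 14.2 CPM and the depolarized 36.7, 28.9, 27.0 and 39.3. These ranges did not overlap, and the difference was 1.75 ± 0.19 (SE, adjusted p = 0.000577), also called in 11 of 13 settings.

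The 2 members that fell were uc009hem.1 (734 bases) and uc029yhf.1. The resting Pan pulldowns of uc009hem.1 held 891, 1049, 653 and 634 CPM and the depolarized 405, 453, 658 and 316. It fell in replicates 1, 2 and 4 and was level in replicate 3, with a difference of -0.89 ± 0.13 (SE, adjusted p = 0.00207) by limma. For uc029yhf.1 the values were 100.1, 118, 138 and 71.9 CPM at rest and 76.1, 83.7, 63.9 and 32.1 after KCl. Each replicate fell while the ranges overlapped, with a difference of -0.77 ± 0.14 (SE, adjusted p = 0.00564).

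The counts in Pan pulldowns were sensitive to the libraries and the test. Of the members, 1 was called without replicate 1, 17 without replicate 2, 46 without replicate 3, 20 without replicate 4 and 45 when the 6 libraries dominated by uc009sgd.1 were dropped. edgeR called 6, the fit without the replicate block called 6, and the states of the descriptions gave 0, with 80 members at an unadjusted p under 0.05.

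In the PSD95 pulldowns 6 members rose with KCl and 22 fell. Together they are 9.33% of the members, near the 7.96% called of all transcripts tested (3.89% higher, 4.07% lower), and falls outnumbered rises among abundant transcripts too, at 1076 against 366. The median member differed by -0.033 (log2), and the median abundant transcript by -0.15. The gap between them was 0.11 ± 0.093 (SD, n = 4), and above 0 in each replicate. Of the 79 members that rose in Pan pulldowns, 4 rose and 4 fell here, and their median difference was 0.055. The called falls had a median length of 916 bases, beside 719.5 for the called rises here and 602 for the rises in Pan pulldowns. Across all members, Spearman's rho between length and the fitted KCl difference in PSD95 pulldowns was only -0.086.

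Among the falls, uc008dcc.2 (979 bases) had the smallest p. Its resting PSD95 pulldowns held 154, 137, 55.3 and 90.8 CPM and the depolarized 70.6, 67.8, 38.7 and 72.9. Each replicate fell, although the ranges overlapped through resting replicate 3, and the difference was -0.95 ± 0.14 (SE, adjusted p = 0.0023) by limma. The same direction held for uc029yhf.1, which also fell in Pan pulldowns, with 141, 156, 131 and 95.1 CPM at rest and 81.9, 101, 119 and 39.6 after KCl. Each replicate was lower after KCl, and the difference was -0.73 ± 0.11 (SE, adjusted p = 0.00298).

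Among the rises, uc007hyn.1 (736 bases) held 84.7, 61.7, 65.7 and 90.1 CPM at rest and 109.5, 138, 92.0 and 142 after KCl. Every depolarized library was above every resting one, with a difference of 0.60 ± 0.13 (SE, adjusted p = 0.0168) by limma, called in 5 of 13 settings. The rise with the smallest p, uc009iup.1, rests on replicates 1 and 2 and is described further on. The count of called members here was 1 without replicate 1, 5 without replicate 2, 18 without replicate 3, 9 without replicate 4 and 17 without the libraries over 50%. edgeR, the fit without the replicate block and the states of the descriptions called 0. Of the members 32, 24 and 26 had an unadjusted p under 0.05 there, beside 69 in the fit reported.

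The inputs showed part of the rise in Pan cultures. There 55 members rose with KCl and 0 fell, beside 2.09% higher, 1.02% lower and 3.11% in all of the 27887 transcripts tested. By limma 119 members had an unadjusted p under 0.05, edgeR called 3 rises and 0 falls, and DESeq2 called 57 rises and 1 fall. The median member differed by 0.23 and the median abundant transcript by -0.0043 (log2). The gap was 0.19 ± 0.12 (SD, n = 4), at 0.27, 0.22, 0.27 and 0.014 in replicates 1 to 4. Of the 79 rises in Pan pulldowns, 77 were above 0 in the Pan inputs and 39 were called, which is 49.4% of the pulldown list and 70.9% of the input list.

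The 2 most abundant members led the Pan inputs. For uc008zrj.2 the resting inputs held 426, 736, 656 and 949 CPM and the depolarized 851, 1211, 1003 and 1137. Each replicate rose while the ranges overlapped, with a difference of 0.79 ± 0.072 (SE, adjusted p = 0.000217) by limma, called in 10 of 13 settings. The other, uc029six.1 (325 bases, mean 13002 reads), differed by 0.91 ± 0.082 (SE, adjusted p = 0.000217), but was called in 6 of 13 settings and ran from 0.11 to 0.92 across them. Its CPM was lower after KCl in replicate 2, and its values are given below. The number of called members was 1 without replicate 1, 17 without replicate 2, 3 without replicate 3, 21 without replicate 4 and 4 without the libraries over 50%. Without the replicate block and under the states of the descriptions it was 0, and 29 and 85 members had an unadjusted p under 0.05.

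In the PSD95 inputs 4 members rose and 4 fell with KCl, beside 0.904% higher, 1.09% lower and 1.99% in all. The median member differed by 0.0063 and the median abundant transcript by -0.048 (log2), and the gap of 0.048 ± 0.10 (SD, n = 4) changed sign between replicates. The member uc008vfz.1 (877 bases) held 91.8, 115, 19.3 and 27.3 CPM at rest and 36.2, 28.4, 18.8 and 7.09 after KCl. It fell in each replicate, little in replicate 3, with a difference of -1.48 ± 0.20 (SE, adjusted p = 0.00339) by limma, called in 8 of 13 settings. Between 0 and 4 members were called when a replicate was left out, and 0 by edgeR or without the replicate block, where 19 and 19 had an unadjusted p under 0.05.

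**Figure D2:**
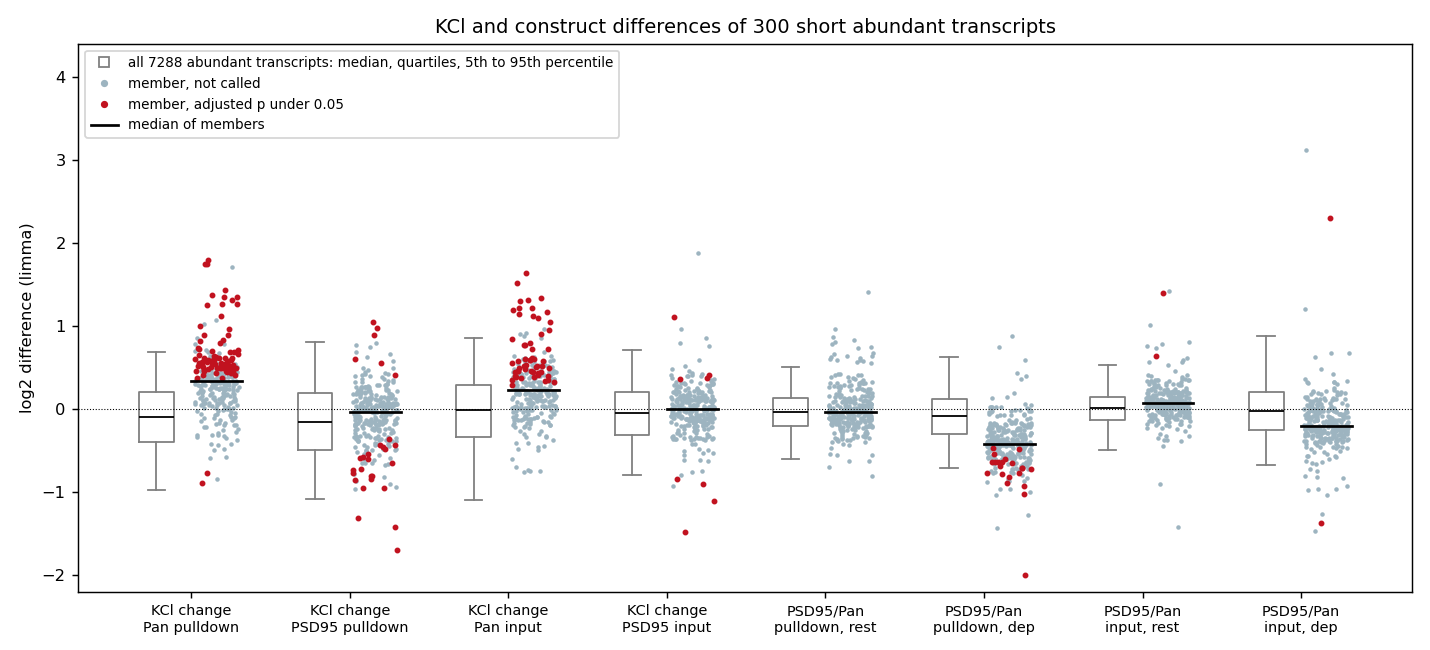
Fitted log2 differences (y axis) of the 300 members for the KCl change (dep minus rest) in the 4 kinds of library and for PSD95 over Pan in each state. Grey boxes give the median, quartiles and 5th to 95th percentile of all 7288 abundant transcripts, points are members (red, called) and black bars their medians. Members lie above the abundant transcripts in the Pan pulldowns and inputs (medians 0.34 and 0.23) and below 0 for PSD95 over Pan in depolarized pulldowns (median -0.42).

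PSD95 over Pan, the comparison used for RNA near the postsynapse, was next taken in each state. In resting pulldowns 0 members were called, beside 0.00614% higher, 0.00307% lower and 0.00922% in all of 32553 transcripts. By limma 35 members had an unadjusted p under 0.05, and edgeR and DESeq2 called 0, where 10 and 16 members had an unadjusted p below 0.05. The median member differed by -0.032 and the median abundant transcript by -0.030, and the gap of 0.021 ± 0.13 (SD, n = 4) was above 0 in replicates 1 and 2 and below in 3 and 4. Without the filter on low counts 1 member was called.

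In depolarized pulldowns, the members were lower with PSD95 than with Pan. Of the 300, 283 were below 0, 21 fell and 0 rose, beside 0.0184% higher, 0.111% lower and 0.129% in all of the transcripts tested. The 21 were among 36 falls of abundant transcripts. By limma 169 members had an unadjusted p under 0.05, DESeq2 called 49 falls and 0 rises, and edgeR called 0 members. The shares of all transcripts under these tests are not given beside these counts. On simulated counts for KCl in Pan pulldowns, DESeq2 made 347 false calls and limma 4. The median member differed by -0.42 and the median abundant transcript by -0.087 (log2). The gap was -0.43, -0.45, -0.32 and -0.21 in replicates 1 to 4, and 173 members (57.7%, beside 18.4% of abundant transcripts) were lower in all 4. By length it was -0.47 ± 0.19 (SD, n = 4) for under 500 bases, -0.38 ± 0.081 for 500 to under 700, -0.28 ± 0.14 for 700 or more and -0.15 ± 0.076 for abundant transcripts of 1000 to under 2000.

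The lead was held by uc008cal.1 (524 bases) and uc007hnk.2 (449 bases). In depolarized pulldowns uc008cal.1 held 206, 218, 96.6 and 138 CPM with Pan and 100.4, 109, 49.0 and 80.4 with PSD95. PSD95 was lower in each replicate, although Pan replicate 3 lay within the PSD95 range. The difference was -0.93 ± 0.094 (SE, adjusted p = 0.00602) by limma, called in 6 of 13 settings. For uc007hnk.2 the values were 345, 263, 129 and 233 CPM with Pan and 137, 137, 89.7 and 158 with PSD95. It was lower in each replicate with overlapping ranges, at -1.02 ± 0.11 (SE, adjusted p = 0.00859), called in 6 of 13 settings. In depolarized inputs uc007hnk.2 held 590, 284, 338 and 306 CPM with Pan and 436, 271, 242 and 296 with PSD95. PSD95 was lower in each replicate there too. For uc008cal.1 these inputs held 317, 287, 183 and 178 CPM with Pan and 251, 192, 147 and 207 with PSD95. PSD95 was lower there except in replicate 4. Neither input difference was called.

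In resting pulldowns neither member was called. At rest uc008cal.1 held 130.4, 96.3, 68.7 and 106 CPM with Pan and 142, 131, 56.1 and 88.2 with PSD95, and uc007hnk.2 held 195, 135, 104 and 172 and 225, 167, 72.9 and 139. PSD95 was above Pan in replicates 1 and 2 and below in replicates 3 and 4 for both. The differences were 0.036 ± 0.089 and 0.052 ± 0.11 (SE), with adjusted p of 0.924 and 0.913 by limma.

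The change of PSD95 over Pan with KCl in pulldowns was then tested itself. It was called lower for 1 member and higher for 0, beside 0.0123% lower, 0.00922% higher and 0.0215% in all, and 117 members had an unadjusted p under 0.05 by limma. The member was uc008cal.1, at -0.97 ± 0.13 (SE, adjusted p = 0.0395). It changed in this direction in 4 of 4 replicates and was called in 4 of 13 settings. With KCl it rose in Pan pulldowns by 0.60 ± 0.084 (SE, adjusted p = 0.00176), and in PSD95 pulldowns it fell, with -0.36 ± 0.098 (SE, adjusted p = 0.042). For uc007hnk.2 the change was -1.07 ± 0.16 (SE, adjusted p = 0.0559). The median member changed by -0.42 and the median abundant transcript by -0.064 (log2), with a gap of -0.50, -0.64, -0.27 and -0.066 in replicates 1 to 4.

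These counts ended under several alternatives. In depolarized pulldowns 0 members were called without replicate 1, 2 or 3, and 3 without replicate 4. The number was also 0 with edgeR (122 members at an unadjusted p under 0.05), without the replicate block (64), under the states of the descriptions (90) and without the libraries over 50% (171). For the change with KCl, the same settings and leaving out replicates 1, 2 or 3 gave 0.

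**Figure D3:**
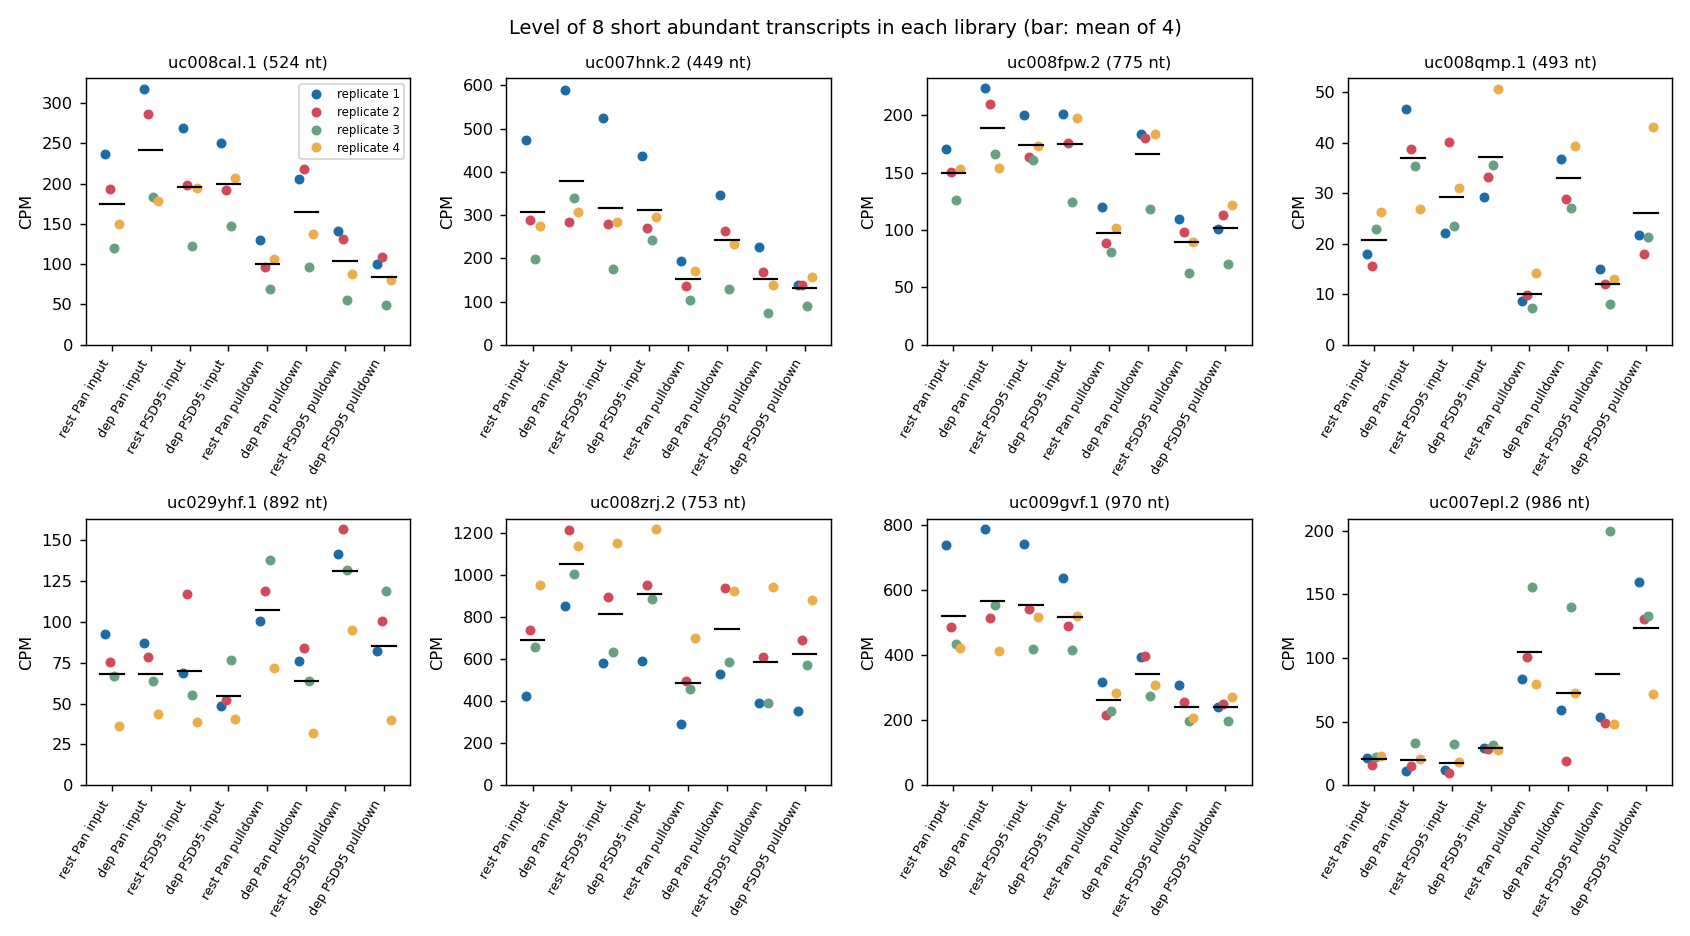
CPM (y axis, from 0) of 8 members in each of the 32 libraries, grouped by state, construct and fraction (x axis), with a color per replicate number and a black bar for the mean of 4. In uc008cal.1 and uc007hnk.2 the mean of the depolarized Pan pulldowns lies above the means of the other pulldowns while replicate 3 lies within their range, uc009gvf.1 is lower in pulldowns than inputs, and uc007epl.2 is higher in them.

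The 21 members lower in depolarized PSD95 pulldowns and the other comparisons share libraries, so their values are set side by side only. In Pan pulldowns the 21 differed with KCl by a median of 0.55 (log2), and 19 were called higher. In PSD95 pulldowns their median was -0.13, with 4 called lower. The Pan inputs gave 0.38 with 12 called higher, and the PSD95 inputs 0.028 with 1 called lower. PSD95 over Pan in depolarized inputs had a median of -0.23 for the 21, with 3 above 0 and 1 called lower. In pulldown over input they had medians of -0.84 (Pan, rest), -0.58 (Pan, dep), -0.92 (PSD95, rest) and -1.08 (PSD95, dep).

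In the inputs, where no protein tag selects the RNA, few members were called between PSD95 and Pan cultures. At rest 2 members were called higher and 0 lower, beside 0.0323% higher, 0.00359% lower and 0.0359% in all of 27887 transcripts. Of the members 31 had an unadjusted p under 0.05 by limma, and edgeR and DESeq2 called 0, where 7 and 15 had an unadjusted p below 0.05. After depolarization 1 was higher and 1 lower, beside 0.00717% higher, 0.0287% lower and 0.0359% in all. The median fitted difference of the members was 0.076 (log2) at rest, with 219 above 0, and -0.20 after depolarization, with 232 below 0. For all abundant transcripts it was 0.013 and -0.026. The gap to the abundant median was 0.052 ± 0.032 (SD, n = 4) at rest and -0.095 ± 0.077 after depolarization, and below 0 in each depolarized replicate. The change with KCl in inputs, a comparison added after the data were seen, was called lower for 2 members and higher for 0, beside 0.0466% lower, 0.00359% higher and 0.0502% in all. Of the members 85 had an unadjusted p under 0.05, and the gap was -0.11, -0.23, -0.28 and -0.091 in replicates 1 to 4. The median member changed by -0.25, with 241 below 0, and the median abundant transcript by -0.053 (log2). The members called in these input comparisons were uc009iup.1, uc029six.1 and uc008zrj.2. For uc008zrj.2 the change was -0.68 ± 0.098 (SE, adjusted p = 0.036) by limma, called in 6 of 13 settings.

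**Figure D4:**
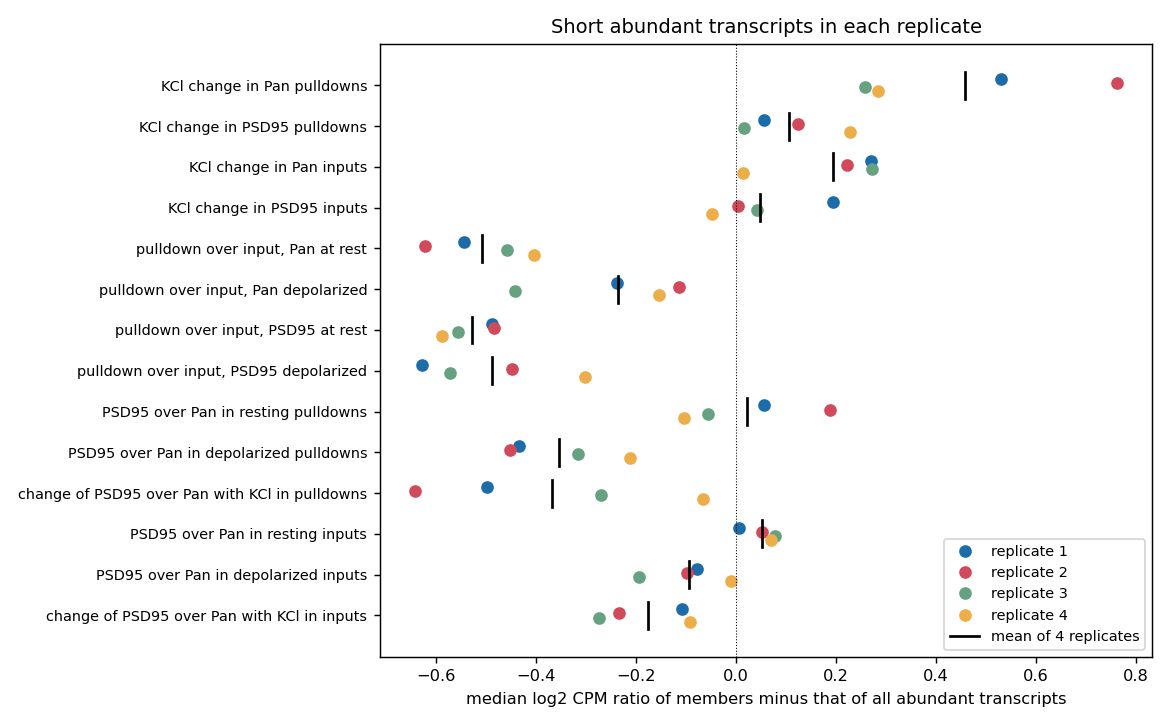
Median log2 CPM ratio of the 300 members minus that of all abundant transcripts (x axis) for 14 comparisons (rows), with a colored point per replicate and a black bar for the mean of 4. The 4 pulldown over input rows lie below 0 in each replicate, KCl in Pan pulldowns lies between 0.26 and 0.76, and PSD95 over Pan in depolarized pulldowns between -0.45 and -0.21.

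Replicate number took a larger part of the variance of log2 CPM than state, construct or fraction for several named members. It took 56.1% for uc008dcc.2, 49.9% for uc008zrj.2, 47.1% for uc008vfz.1 and 41.4% for uc029yhf.1, whose KCl changes are given above. It was largest among the named members for uc009iup.1 and uc029six.1. The most uneven member, uc009iup.1 (630 bases), had an SD of log2 CPM of 5.61, and replicate number took 96.5% of its variance. Its resting Pan inputs held 286, 359.9, 0 and 2.42 CPM in replicates 1 to 4, and its depolarized PSD95 inputs 1491, 2191, 0 and 0. The resting and depolarized PSD95 pulldowns held 259, 149, 0 and 0 and 434, 505, 0 and 0 CPM. It was high in replicates 1 and 2 of every group and at or near 0 in replicates 3 and 4 of every group.

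The limma calls for uc009iup.1 thus rest on 2 replicates. They were the rise with KCl in PSD95 pulldowns, 0.98 ± 0.14 (SE, adjusted p = 0.00161), the rise in PSD95 inputs, 1.11 ± 0.19 (SE, adjusted p = 0.0101), and the fall of pulldown against input in depolarized PSD95 cultures, -1.93 ± 0.14 (SE, adjusted p = 1.61e-09). PSD95 inputs exceeded Pan inputs by 1.40 ± 0.18 (SE, adjusted p = 0.0275) at rest and by 2.31 ± 0.16 (SE, adjusted p = 5.32e-05) after depolarization. The fall turned to 2.04 and the resting input difference to -2.79 without the replicate block, and the latter was -0.97 with DESeq2.

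The most abundant member, uc029six.1, varied with replicate number too, which took 71.5% of its variance. Its inputs held 1990.0, 697, 144 and 605 CPM in resting Pan, 3646, 665, 343 and 873 in depolarized Pan, 3168, 1042, 203 and 747 in resting PSD95 and 1376, 508, 201 and 1190.1 in depolarized PSD95 cultures. Replicate 1 was the highest in each of these groups and replicate 3 the lowest. With KCl it differed by -1.11 ± 0.091 (SE, adjusted p = 0.00017) in PSD95 inputs by limma, although replicate 4 ran the other way. PSD95 inputs differed from Pan inputs by 0.64 ± 0.094 (SE, adjusted p = 0.0497) at rest and by -1.37 ± 0.078 (SE, adjusted p = 1.49e-05) after KCl, and the change between them was -2.01 ± 0.12 (SE, adjusted p = 3.06e-05).

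Without replicate 1 the sign turned for the KCl difference of uc029six.1 in PSD95 inputs (0.43), for the depolarized input difference (0.15) and for the change (0.089). In the pulldowns it held 722, 394, 410.3 and 982 CPM in resting Pan, 3200.3, 1084, 276 and 1408 in depolarized Pan, 1995, 514, 191 and 547 in resting PSD95 and 579.7, 293, 307 and 837 in depolarized PSD95 cultures. The replicates did not share a direction there either. With KCl, Pan replicates 1, 2 and 4 were higher and replicate 3 lower, and PSD95 replicates 1 and 2 were lower and 3 and 4 higher. The fitted differences were 1.44 ± 0.24 (SE, adjusted p = 0.00466) in Pan and -1.42 ± 0.35 (SE, adjusted p = 0.0295) in PSD95 pulldowns by limma.

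**Figure D5:**
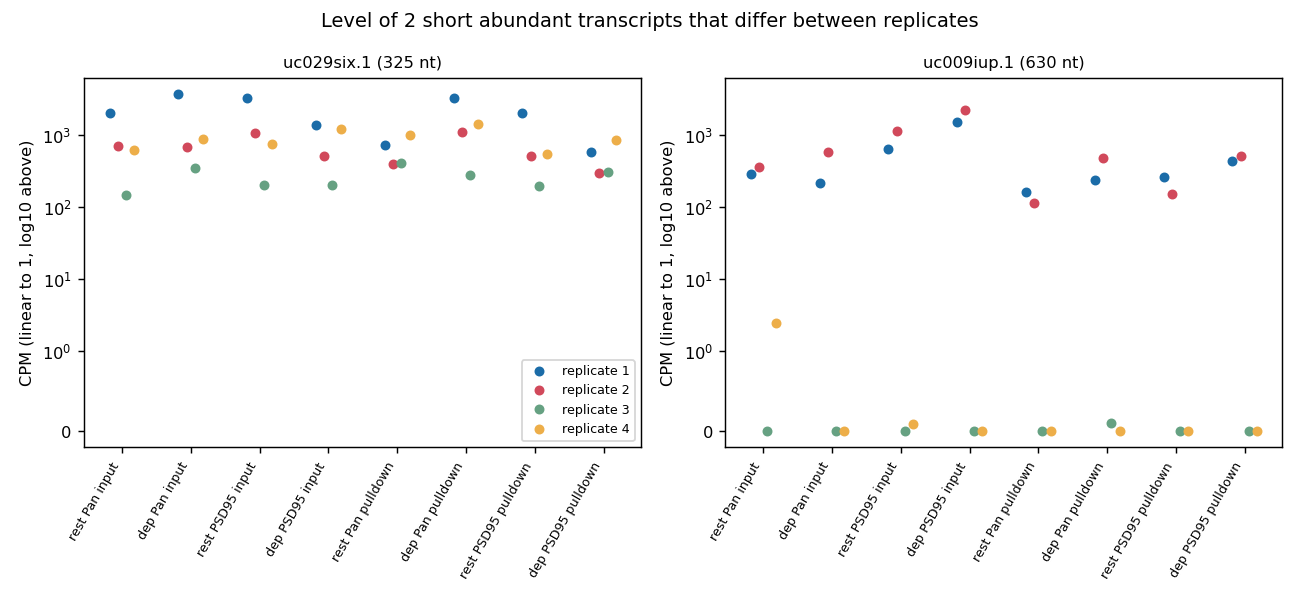
CPM of uc029six.1 (left) and uc009iup.1 (right) in each library by group (x axis), with a color per replicate number and a y axis that is linear to 1 and logarithmic above. Replicates 1 and 2 of uc009iup.1 lie above 100 CPM in each group while replicates 3 and 4 lie at or near 0, and uc029six.1 is highest in replicate 1 of each input group.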

How the data were processed

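Libraries were 16 inputs and 16 streptavidin pulldowns from cortical cultures, prepared as stranded RNA libraries with ribosomal RNA depletion. The authors quantified reads with Salmon on mm10 UCSC knownGene transcripts. Its version is not given in the sources used here, and DESeq and limma stand in the submitters' processing notes as well. The study then kept the longest transcript of each gene, whereas every transcript model was kept here. The deposited expected counts split reads that match several transcripts, and they were rounded to whole numbers for testing. The deposited TPM values, which the authors' tool scales by length and library, were used only for levels per length.

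Groups came from titles and the treatment field. Descriptions number replicates 1 higher than the titles throughout, which leaves the pairing as it is. Each comparison was fitted on the whole table with limma 3.58.1 (voomWithQualityWeights, R 4.3.3), TMM factors and filterByExpr of edgeR 4.0.16, group and replicate number as terms, and two-sided Benjamini-Hochberg adjusted p at 0.05. Pulldowns, inputs and pulldown over input were fitted on 16, 16 and 32 libraries. All 300 members passed each filter. The quality weights, filter and replicate term follow the study's methods, which describe biological replicates processed together. Libraries of the same number had residuals correlating with a mean r of 0.138 in inputs and 0.119 in pulldowns, against -0.043 and -0.036 for different numbers. The lowest of the same-number pairs was -0.023. Quality weights ran from 0.349 to 2.30, the highest for a resting PSD95 pulldown of replicate 3 with few reads. They went by replicate in the fits of pulldowns and of inputs. Replicate 2 libraries had 0.349 to 0.638 there, and replicate 3 libraries, the ones most often dominated by uc009sgd.1, had 1.20 to 2.30.

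Medians over members used log2 CPM ratios within a replicate number (prior count 2), minus the median of transcripts with a mean of at least 200 reads. Members and lists were chosen with earlier results of these data known. Named members are, per comparison, the 2 with the smallest p in each direction among called ones with a log2 difference of at least 0.5, besides uc008cal.1, uc007hnk.2, the 2 most abundant members and those at the limits of the rule. Alternatives were the quasi-likelihood test of edgeR, RLE factors, DESeq2 1.42.0, no quality weights, no filter, no replicate block, a block by lysate, the states of the descriptions and leaving out each replicate. Leaving out the 6 libraries with over 50% uc009sgd.1 was added after the data were seen.

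On simulated counts for KCl in Pan pulldowns, with 32553 transcripts, of the 100 transcripts given a 2-fold change limma called 11, of the 100 given a 4-fold change 58, and 4 calls were false. edgeR recovered 8 and 51 with 2, and DESeq2 36 and 79 with 347. For pulldown over input in resting Pan cultures, with 34696 transcripts, limma recovered 34 and 70 with 5 false calls and edgeR 27 and 68 with 2. Changes were given to abundant transcripts only. The simulation held no replicate effect and no libraries of unequal quality, so its false calls need not carry over to these data. Since reads carry no molecular identifiers, counts are not independent molecules. Figures used matplotlib 3.10.9 in Python 3.11.15.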

Additional observations from a re-analysis of the deposited data

Results flagged for a closer look

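Of 158 sets of 4 values, 8 held a value far from the other 3 (a gap over Dixon's limit for 4 values), while chance gives about 7.9. The sets were the groups of 4 libraries of each named member, leaving out those named only as the limits of the rule, and the replicate medians over members in the 14 comparisons. The 8 were all groups of libraries of named members. In depolarized Pan pulldowns, replicate 3 of uc008fpw.2 stood at 118 CPM against 180.0 to 184 in the others. In depolarized PSD95 pulldowns, replicate 4 of uc008qmp.1 held 43.0 CPM against 17.9 to 21.7, and replicate 3 of uc008dcc.2 held 38.7 against 67.8 to 72.9. In resting Pan inputs, replicate 4 of uc009hem.1 held 513 CPM against 650.5 to 677. In depolarized Pan inputs, replicate 1 of uc029six.1 held 3646 CPM against 343 to 873, and replicate 2 of uc011ysb.1 held 5.67 against 40.2 to 46.4. In resting PSD95 libraries, replicate 3 of the uc007epl.2 pulldowns held 199 CPM against 47.9 to 53.6, and replicate 4 of the uc011ysb.1 inputs held 45.2 against 33.01 to 35.0.

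For 3 members the KCl change differed between the constructs by a test of that difference in limma. The change with PSD95 minus that with Pan was -0.97 (log2) for uc008cal.1 in pulldowns (adjusted p = 0.0395), in 4 of 4 replicates. In inputs it was -2.01 for uc029six.1 (adjusted p = 3.06e-05), in 3 of 4 replicates, and -0.68 for uc008zrj.2 (adjusted p = 0.036), in 4 of 4.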

How the results depend on the processing

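Under the alternatives run for it, the members' median against abundant transcripts kept its side of 0 in the 4 pulldown over input comparisons. So it did for KCl in Pan libraries and for PSD95 over Pan after depolarization. Those alternatives were the centring, the prior count, whole counts, at least 500 reads, the states of the descriptions and leaving out a replicate. The other alternatives were run only for the called members, whose number did not hold. Shares of all transcripts are not given beside these numbers. Counts follow as KCl in Pan pulldowns, PSD95 pulldowns, Pan inputs and PSD95 inputs. They were 6, 0, 3 and 0 with edgeR, 6, 0, 0 and 0 without the replicate block, 0 in each with the states of the descriptions, and 45, 17, 4 and 4 without the libraries over 50% uc009sgd.1. In PSD95 pulldowns 13 were called with DESeq2, 14 without quality weights and 14 without the filter, and in PSD95 inputs 19 without the filter.

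For pulldown over input in Pan cultures, edgeR called 90 at rest and 45 after depolarization, and the fit without the replicate block 70 and 16, with 66 in resting PSD95 cultures. In depolarized Pan cultures DESeq2 called 84, a block by lysate 92 and the fit without the libraries over 50% 55. For PSD95 over Pan, the counts in depolarized pulldowns, their change with KCl, depolarized inputs and the change in inputs were 49, 19, 5 and 4 with DESeq2, 40, 7, 28 and 24 without the filter, and 8, 0, 8 and 7 without quality weights. RLE factors gave 32, 9 and 6 in the first 3. Resting inputs had 0 with DESeq2 and 1 without the filter, and resting pulldowns 1 without the filter. edgeR and the fit without the replicate block gave 0 in all 6 comparisons of PSD95 with Pan, and the states of the descriptions gave 0 in all but depolarized inputs. Without the libraries over 50%, depolarized pulldowns and their change gave 0.

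With a replicate left out, the lowest and highest counts were 1 and 46, 1 and 18, 1 and 21, and 0 and 4 for KCl in the order above. They were 48 and 178, 21 and 114, 51 and 161, and 74 and 198 for pulldown over input (Pan rest, Pan dep, PSD95 rest, PSD95 dep). For PSD95 over Pan they were 0 and 3 in depolarized pulldowns, 0 and 1 for the change, 0 and 2 in resting inputs, 1 and 4 in depolarized inputs and 0 and 1 for the change in inputs.

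With the states of the descriptions the median gap was 0.077 for KCl in Pan pulldowns, less than its SD of 0.24 over replicates under the titles. It was -0.38 for resting Pan pulldown over input. For PSD95 over Pan in resting and depolarized pulldowns and their change it was -0.14, -0.19 and -0.048. In resting inputs and the change in inputs it was 0.014 and -0.060. Centred on all transcripts, it was -0.018 for KCl in PSD95 pulldowns, -0.73, -0.49, -0.79 and -0.85 for pulldown over input, -0.49 for depolarized PSD95 over Pan and -0.30 for the change in inputs. With a mean of at least 500 reads it was -0.61 in resting PSD95 pulldown over input. RLE factors moved the median of all transcripts from 0.15 to 0.32 (PSD95, rest) and from 0.080 to 0.29 (PSD95, dep) in pulldown over input.

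Signs turned for 2 members. The KCl difference of uc029six.1 in PSD95 inputs was 0.55 without the filter, 0.063 without the replicate block and from -1.14 to 0.43 with a replicate left out, the latter without replicate 1. Its PSD95 over Pan difference was -0.38 at rest, 0.067 after depolarization and 0.44 for the change without the filter, and with a replicate left out the last 2 ran from -1.35 to 0.15 and from -2.02 to 0.089, highest without replicate 1. For uc009iup.1, pulldown over input in depolarized PSD95 cultures was 2.04 without the replicate block, and PSD95 over Pan in resting inputs was -0.97 with DESeq2 and -2.79 without the replicate block. The cause was not tested. Of 38 named differences, 14 kept their call without the replicate block, 14 without replicate 1, 17 with edgeR, 17 under the states of the descriptions, 27 with DESeq2, 24, 27 and 31 without replicates 2, 3 and 4, 31 without the libraries over 50%, 31 without the filter, 37 without quality weights and 38 with RLE factors. Reads shared between transcripts and the low depth left beside uc009sgd.1 limit single members.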

Other observations

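Among the 12 members that rose with KCl by at least 1 (log2) in Pan pulldowns, several carried neighbouring identifiers, which was noticed after their values were seen. All 8 members whose identifiers start with uc007pt or uc007pu (368 to 782 bases) are therefore given. In Pan pulldowns their KCl differences ran from 0.96 to 1.75 with a median of 1.28, and limma called 7 higher. In Pan inputs they ran from 0.85 to 1.31 with a median of 1.16, again with 7 called higher. In PSD95 pulldowns the median was 0.033, with a range of -0.48 to 0.68, and 0 were called. In PSD95 inputs the median was 0.28, with 0 called. Of the 8, 7 shared estimated reads with other transcripts, so they are not independent measurements. Pulldown over input was below 0 for all 8 in each of the 4 comparisons, with medians of -1.19 (Pan, rest), -0.99 (Pan, dep), -0.92 (PSD95, rest) and -1.18 (PSD95, dep). It was below 0 for 276 to 284 of the 300 members in these comparisons.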
